A study of Mus musculus with 8 samples.

Results

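The genes described here are the protein-coding genes of the replication-dependent histone clusters, chosen by biotype and by symbols that start with Hist1h, Hist2h, Hist3h or Hist4h. They number 67 of the 54532 genes listed and of the 22046 listed protein-coding genes, and 3 pseudogenes with the same kind of symbol were left out. By class they are 6 H1, 18 H2a, 18 H2b, 12 H3 and 13 H4 genes. In mm10, the 54 Hist1 genes lie on chromosome 13 between 21715763 and 23934851, the 10 Hist2 genes on chromosome 3 between 96219865 and 96270132, the 2 Hist3 genes on chromosome 11 and Hist4h4 on chromosome 6. No measured value entered the choice.

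Molar tooth germs of Notum+/+ and Notum−/− embryos were profiled by RNA sequencing on embryonic days E14.5 and E16.5, and each of the 4 groups has 2 libraries. The mutant embryos are homozygous for the Notum em1(IMPC)Tcp knockout allele, the controls are wild-type littermates, and all groups share the C57BL/6N background. The loss is present in the whole embryo and is not limited to a dental cell type, and the germs in a library, maxillary and mandibular, were pooled over embryos without regard to sex. Differences between the libraries of a group, from which the p-values are drawn, are those of such pools. Messenger RNA was captured on poly-T beads, and the values are the authors' FPKM, a read count divided by gene length and by library depth.

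Replication-dependent histone genes supply the histones that package newly copied DNA during S phase. They have few or no introns, and most of their mRNAs end not in a poly-A tail but in a short stem-loop, which is bound by the stem-loop binding protein Slbp and cut by a complex that contains the U7 snRNA. A minority of these genes can also be read through to a poly-A signal further downstream, which gives a tailed mRNA, often in cells that have left the cycle.

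The annotated 3′ ends of the 67 genes show both kinds of signal. After the stop codon, 43 of the 67 annotated transcripts held a stem-loop, searched on the transcribed strand as a 6-base stem that starts with GG and a 4-base loop that starts with TTT, where the stem is closed by its own reverse complement. Of 21573 other protein-coding genes, 4 held such a hairpin in the 100 bases after the stop codon (0.0185%), and H2afx, which encodes the variant H2A.X, is among them. A further 13 histone transcripts are annotated only up to the stop codon, so that no stem-loop could be found in them. A poly-A signal (AATAAA or ATTAAA on the transcribed strand, in the last 40 bases) was present in 17 of the 67 histone transcripts (25.4%) and in 70.4% of the other protein-coding genes. This signal too was searched only after the stop codon. The same 13 histone transcripts, and 690 of the 21573 other genes that also end there, could therefore hold none.

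The 43 hairpins had 6 distinct cores. The sequences of the genes with the highest levels and of some that differed between groups are shown here because they hold the signals that decide whether a message can be tailed. They were read from GENCODE transcripts of GRCm38, the build also called mm10, and the capitals mark the hairpin core.
Hist3h2ba stem-loop, chr11:58949344-58949369, plus strand: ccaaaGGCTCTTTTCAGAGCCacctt
Hist1h1c stem-loop, chr13:23739507-23739532, plus strand: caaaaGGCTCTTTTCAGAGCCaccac
Hist1h4i stem-loop, chr13:22040961-22040986, minus strand: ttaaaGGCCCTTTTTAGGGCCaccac
Hist1h3c stem-loop, chr13:23745042-23745067, minus strand: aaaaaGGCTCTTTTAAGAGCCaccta
Hist1h2ag stem-loop, chr13:22042478-22042503, minus strand: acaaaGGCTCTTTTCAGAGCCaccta
Hist1h2bk stem-loop, chr13:22036295-22036320, plus strand: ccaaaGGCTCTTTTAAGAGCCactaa
Hist1h4h stem-loop, chr13:23531453-23531478, plus strand: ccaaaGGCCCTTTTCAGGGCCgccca

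The core of Hist3h2ba, Hist1h1c and Hist1h2ag was shared by 25 genes of the classes H1, H2a, H2b and H3. The core of Hist1h4h was shared by 7 genes, all of class H4, and that of Hist1h4i by 2 genes, also of class H4. The last 30 bases of the transcripts of 4 of the 5 genes with the highest level are given next, with the poly-A signal in capitals. In Hist3h2ba, Hist1h1c and Hist1h4i the signal lies downstream of the stem-loop, and in Hist2h2be no stem-loop was found.
Hist3h2ba transcript end, chr11:58949504-58949533, plus strand: attAATAAAtttggttcaattttggccaca
Hist1h1c transcript end, chr13:23740338-23740367, plus strand: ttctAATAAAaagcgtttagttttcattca
Hist1h4i transcript end, chr13:22040636-22040665, minus strand: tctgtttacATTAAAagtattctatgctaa
Hist2h2be transcript end, chr3:96223709-96223738, plus strand: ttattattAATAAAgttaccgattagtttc

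Notum, the deleted gene, was read first as the check of genotype. It had 2.65 and 1.85 FPKM in Notum+/+ and 1.002 and 1.039 FPKM in Notum−/− molars at E14.5, and 9.33 and 9.57 FPKM against 2.72 and 2.31 FPKM at E16.5, so that at each age both Notum−/− libraries lay below both controls. The log2 fold change was −1.05 (standard error, SE, 0.21, limma adjusted p = 0.237) at E14.5 and −1.87 (SE 0.10, limma adjusted p = 0.00396) at E16.5. Depth was 21972354 to 30540596 reads on listed genes per library. Markers of tissues around the tooth germ differed between groups. Many of them are among the most changed genes in the paper's own comparison of genotypes in these data. Examples are Nefh, Nefm, Nefl, Sncg, Prph and Pou4f1 (neurons), and Acta1, Ckm, Tnnt3, Mylpf and Myh8 (muscle). Tpsb2, Cma1, Hdc and Cpa3 (mast cells) and Krt13, Krt4 and Sprr1a (oral epithelium) are others. The lists were chosen with earlier results known, so the marker counts between genotypes are no independent test of tissue content. The 10 sensory neuron markers summed to 36.7 to 39.1 FPKM in the 4 libraries at E14.5, to 124.2 and 125.9 FPKM in Notum+/+ and to 29.0 and 28.5 FPKM in Notum−/− at E16.5, where 10 of 10 fell. None of the 10 was at 0 in all 8 libraries. The 10 skeletal muscle markers summed to 142.6 to 151.2 FPKM in Notum+/+ and 360.2 to 364.9 FPKM in Notum−/− at E14.5. By estimate 10 of 10 were higher, and 6 of them passed. At that age the oral epithelial markers summed to 28.7 ± 0.693 FPKM in Notum+/+ and 129.98 ± 2.82 FPKM in Notum−/− (SD, n = 2 each). The mast cell markers summed to 14.2 ± 0.308 and 33.9 ± 2.48 FPKM. By estimate 5 of 5 tested oral epithelial and 6 of 6 mast cell markers were higher, and 2 and 1 of them passed. At E16.5 the skeletal muscle markers summed to 595.5 and 636.3 FPKM in Notum+/+ and 855.6 and 838.8 FPKM in Notum−/−, where 6 of 10 rose. In the same comparison of genotypes at E16.5, 9 of 10 dental epithelial markers fell, 4 of 10 dental mesenchymal markers rose and 3 fell, 4 of 6 mast cell markers rose, and 2 of 5 tested oral epithelial and 2 of 8 tested erythroid markers fell. The part of these tissues in the histone values was not tested, and in bulk RNA fewer cells of a type and less RNA per cell cannot be told apart.

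Histone messages were a small part of these poly-A libraries. The 67 genes together held 2044 to 3195 reads per library, which is 0.00832% to 0.0123% of the reads on listed genes, and 20235 reads in all 8 libraries. Their median of mean FPKM was 0.375, against 2.16 for all protein-coding genes. Of the 67 genes, 39 had a mean above 0.3 FPKM and 16 a mean above 1 FPKM, 28 were above the floor of 3 reads in every library, 13 were at or below it in every library, and 7 had no read at all. Other RNAs that lack a poly-A tail were low as well. Of 10 listed names, Rmrp, Rn7s1, Rpph1, Rprl1, Rprl2 and Rprl3 were at 0 in every library, and Rn7sk had a mean of 1.34 FPKM. Of the 54532 genes listed, 20509 were at 0 in every library.

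The level was concentrated in few genes. Hist3h2ba (24.1 FPKM over the 8 libraries), Hist1h1c (12.5 FPKM), Hist1h2bc (11.9 FPKM), Hist1h4i (9.14 FPKM) and Hist2h2be (5.82 FPKM) together held 56.6% to 66.5% of the summed histone FPKM of a library. Hist3h2ba was the highest of them, higher than 90.9% of the protein-coding genes. Of these 5 genes, 4 carry the poly-A signals shown above, and Hist1h2bc is annotated with 2 exons over 8710 bases and without a stem-loop, unlike most of the family. The 17 genes with a poly-A signal held 56.7% of the summed level, but this came from those 4 genes, since the median was 0.338 FPKM with a signal and 0.398 FPKM without. The 31 genes with over 100 bases annotated after the stop codon held 77.1% of the summed level, and the 36 others 22.9%.

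**Figure D1:**
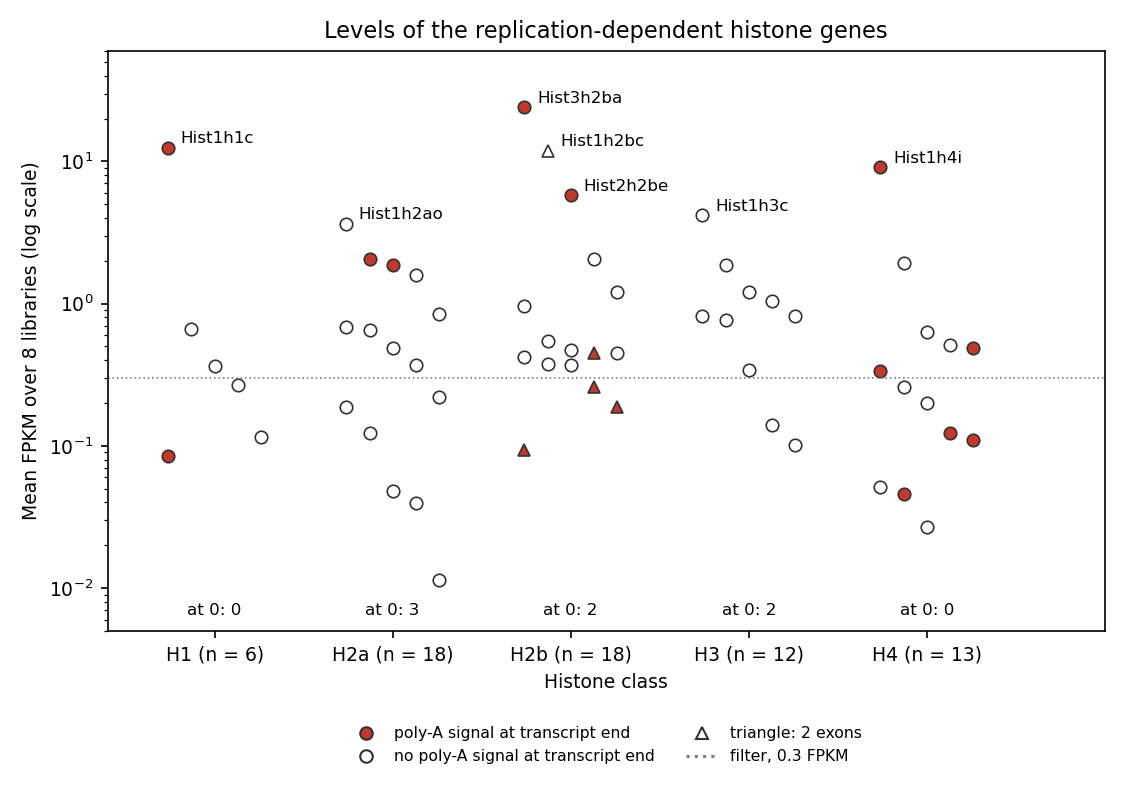
Mean FPKM over the 8 libraries (y axis, log scale) of the histone genes by class (x axis). Filled symbols have a poly-A signal in the last 40 bases of the annotated transcript, triangles have 2 exons, the dotted line is the filter at 0.3 FPKM, and genes at 0 are counted at the bottom. The 5 highest genes include 4 filled symbols and the 2-exon Hist1h2bc, while most others lie under 1 FPKM whether filled or open.

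Neighbours that are transcribed away from each other differed widely. The 12 pairs of histone genes on opposite strands whose starts are under 500 bases apart each join an H2a and an H2b gene. Hist1h2ac had a mean of 0.373 FPKM and Hist1h2bc, which starts 250 bases away, 11.9 FPKM, which is 32.0 times as much. Hist2h2ac had 0.123 FPKM and Hist2h2be, 238 bases away, 5.82 FPKM, which is 47.3 times as much. That ratio is imprecise, since Hist2h2ac held 13 reads over the 8 libraries and at most 3 in any of them. Hist1h2bq had 0.187 FPKM and Hist1h2ao, 267 bases away, 3.65 FPKM, but 100% and 92.7% of the 100-base windows of their transcripts also occur in transcripts of other genes. Among the other pairs with reads on both genes, the higher level was 1.33 to 5.47 times the lower. The pair at 5.47 includes Hist1h2an, which held 4 reads over the 8 libraries.

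Near-identical copies limit several of these values. In 10 of the 67 genes at least 90% of the 100-base windows of the transcript also occurred in transcripts of other genes, and 5 of these 10 had no read in any library (Hist2h2aa1, Hist2h2aa2, Hist2h2bb, Hist2h3b and Hist2h3c1). In addition, exons of 24 genes overlap exons of another gene on either strand, and no source used here gives the strand setting of the counting, so reads of a gene and of an antisense partner cannot be told apart. The remaining genes without a read were Hist1h2aa and Hist1h2ba, a pair of testis-type histones. For 0 reads in 8 libraries, the upper 95% limit of the expected total is about 3 reads. Hist1h1t, the testis-type linker histone, had 6 and 6 reads in Notum+/+ and 1 and 0 reads in Notum−/− molars at E14.5, no read in Notum+/+ and 0 and 2 reads in Notum−/− molars at E16.5.

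The summed level was highest in Notum+/+ molars at E16.5. It was 88.7 and 99.5 FPKM in Notum+/+ and 88.0 and 86.1 FPKM in Notum−/− molars at E14.5, and 124.4 and 124.8 FPKM against 102.5 and 100.1 FPKM at E16.5. Of the 88.0 FPKM in replicate 1 of Notum−/− at E14.5, 8.81 FPKM came from Hist1h2af alone, which had 0.0965 FPKM in replicate 2. The ratio of Notum−/− to Notum+/+ was 0.925 ± 0.0761 (SD from the spread of both groups, n = 2 and 2) at E14.5 and 0.813 ± 0.0137 at E16.5, and the ratio of E16.5 to E14.5 was 1.32 ± 0.107 in Notum+/+ and 1.16 ± 0.0265 in Notum−/−. At E16.5 both Notum−/− sums lay below both Notum+/+ sums. Rescaled to TPM, with the same total in every library, the ratio of genotypes was 0.902 at E14.5 and 0.861 at E16.5. Without the genes that overlap others, Hist1h2af among them, it was 0.889 at E14.5 and 0.825 at E16.5. Sums describe the libraries and were not tested.

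**Figure D2:**
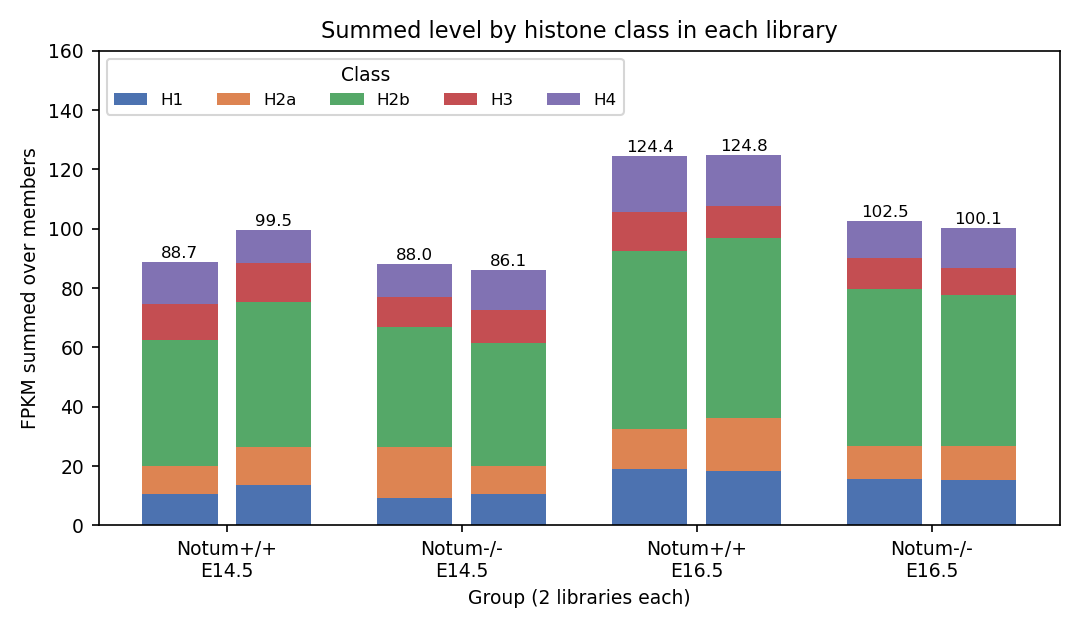
FPKM summed over the members of each histone class (stacked bars, y axis from 0) in each of the 8 libraries (x axis, 2 bars for a group), with the total on top. The H2b genes make up the largest block in every library, and the Notum+/+ libraries at E16.5 are the highest at 124.4 and 124.8 FPKM.

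By class, H2b genes held 48.9% of the summed level, H1 genes 13.8%, H4 genes 13.6%, H2a genes 12.6% and H3 genes 11.1%. The H2b sum was 42.6 and 48.9 FPKM in Notum+/+ and 40.5 and 41.5 FPKM in Notum−/− molars at E14.5, and 59.8 and 60.6 FPKM against 53.1 and 50.8 FPKM at E16.5. The H2a sum was 9.24 and 12.9 FPKM against 17.1 and 9.59 FPKM at E14.5, and 13.7 and 17.8 FPKM against 11.2 and 11.4 FPKM at E16.5. The mean H2a sum was thus higher in Notum−/− at E14.5, where the genotypes overlapped and Hist1h2af alone had 8.81 FPKM in replicate 1, and lower at E16.5. The H4 sum was 18.7 and 17.1 FPKM in Notum+/+ and 12.4 and 13.3 FPKM in Notum−/− molars at E16.5, against 10.9 to 13.9 FPKM at E14.5. The H1 sum was 18.8 and 18.4 FPKM in Notum+/+ and 15.5 and 15.3 FPKM in Notum−/− molars at E16.5, and 9.25 to 13.5 FPKM at E14.5. The H3 sum ran from 9.28 to 13.3 FPKM over the 8 libraries, with Notum+/+ and Notum−/− molars at 12.1 ± 1.70 and 9.84 ± 0.804 FPKM at E16.5 (SD, n = 2 each).

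At E14.5, the genotypes were compared first by gene. Of the 67 genes, 37 had a mean above 0.3 FPKM in the 4 libraries and were tested, and 0 passed limma with an adjusted p under 0.05, where 0.209% of the 18187 genes tested did (0.176% higher and 0.033% lower). An unadjusted p under 0.05 was reached by 3 of the 37, and voom on reads also called 0. By estimate, 22 genes were lower and 15 higher in Notum−/−, with a median log2 fold change of −0.13 against −0.01 for all genes. The groups did not overlap for 8 of the 37 genes, 7 of them lower in Notum−/−, where 40.6% of all genes did not overlap (20.5% lower and 20.1% higher). The histone share lies below that background.

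At E16.5, 37 genes were tested and 8 passed, all lower in Notum−/− molars (21.6%). Among all 18570 genes tested, 30.9% passed (16.48% lower and 14.5% higher), so that the share of histone genes called was below the background for both directions together and near it for lower genes alone. By estimate, 29 of the 37 were lower and 8 higher, with a median log2 fold change of −0.30 against 0.00 for all genes. With the trend on GC content removed, 24 were lower and 13 higher, with a median of −0.17 against 0.01. The 39 histone genes tested over all 8 libraries had a median GC content of 57.8%, against 49.7% for all genes tested. Their median length was 572 bases against 3461 bases. The genes that passed are 1 H1 gene, 2 H2a, 2 H2b and 3 H4 genes, and no H3 gene. The groups did not overlap for 18 genes, 15 of them lower, against 69.9% of all genes (35.0% lower and 34.9% higher). Without replicate 1 or without replicate 2 of Notum−/− at E16.5, 0 histone genes passed and 0 of all genes, and without replicate 1 or 2 of Notum+/+ 3 and 4 histone genes passed. Without the 36 genes that overlap another gene or share at least 50% of their windows, 4 remained (Hist3h2ba, Hist1h1c, Hist1h4i and Hist1h4h).

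**Figure D3:**
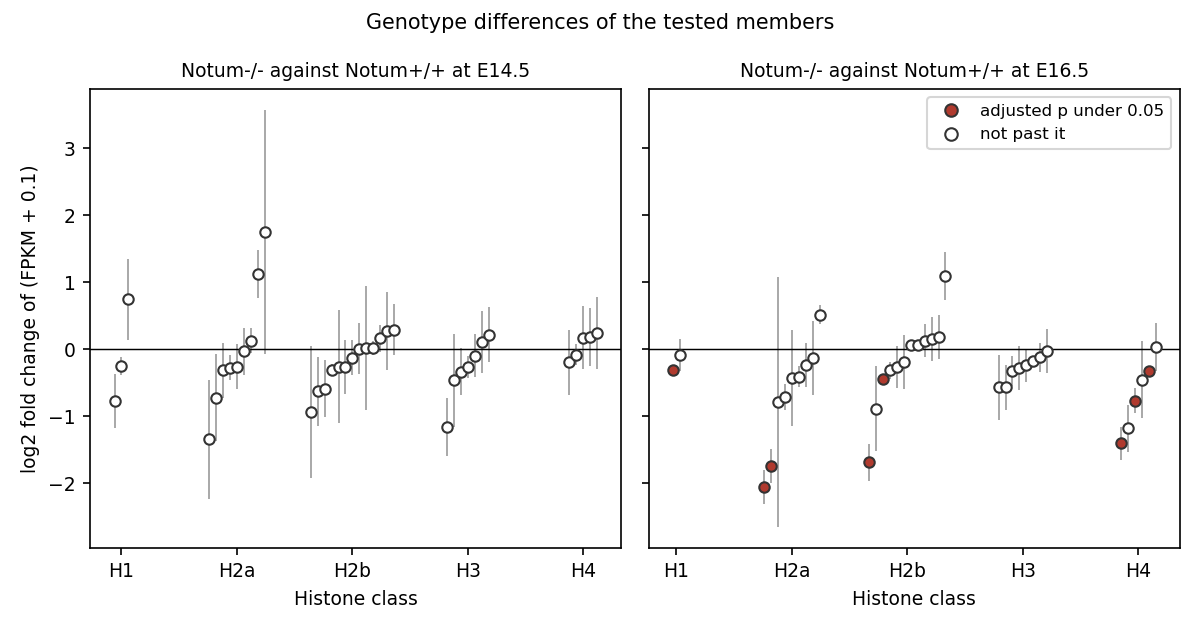
Log2 fold change of FPKM + 0.1 (y axis) between Notum−/− and Notum+/+ molars for each tested histone gene, by class (x axis), at either age. Bars are standard errors from limma and filled points passed an adjusted p of 0.05. No point is filled at E14.5, and the 8 filled points at E16.5 all lie below 0.

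Among the H1 genes, Hist1h1c was the only one above 1 FPKM. Hist1h1c encodes the linker histone H1.2, which binds DNA where it enters and leaves the nucleosome. It had 9.20 and 11.5 FPKM in Notum+/+ and 8.20 and 9.08 FPKM in Notum−/− molars at E14.5, and 17.4 and 16.9 FPKM against 14.2 and 13.6 FPKM at E16.5, from 313 to 695 reads per library. All 4 libraries at E16.5 lay above all 4 at E14.5, and at each age both Notum−/− libraries lay below both controls. The log2 fold change with genotype was −0.25 (SE 0.13, limma adjusted p = 0.629) at E14.5 and −0.30 (SE 0.05, limma adjusted p = 0.0131) at E16.5. With the trend on GC content removed the value at E16.5 was −0.12 (limma adjusted p = 0.122), and the call was also lost without a trend of variance and with 1 fit of all libraries. The difference of these effects was −0.05 (SE 0.15) and did not pass (limma adjusted p = 0.837). With age it rose by 0.73 on the log2 scale in Notum+/+ (SE 0.12, limma adjusted p = 0.0104) and by 0.68 in Notum−/− (SE 0.07, limma adjusted p = 0.0105).

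The other H1 genes had few reads. Hist1h1a, which encodes H1.1, had 0.728 and 0.543 FPKM in Notum+/+ and 0.221 and 0.467 FPKM in Notum−/− molars at E14.5, and 0.213 and 0.257 FPKM against 0.175 and 0.305 FPKM at E16.5, from 4 to 13 reads. It was the only histone gene that fell with age in Notum+/+ by the test, with a log2 fold change of −1.13 (SE 0.31, limma adjusted p = 0.0450), and it passed the filter through the E14.5 libraries alone. The call was lost in 4 of 11 other settings and without any 1 of the 4 libraries. Hist1h1b, which encodes H1.5, ran from 0.168 to 0.903 FPKM and passed in none of the 5 comparisons. Hist1h1e, which encodes H1.4, ran from 0.169 to 0.445 FPKM, lay under the filter in every comparison and was not tested.

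The H2a and H2b genes encode the pair of core histones that forms the outer dimers of the nucleosome. Hist3h2ba, an H2b gene, had 23.6 and 23.1 FPKM in Notum+/+ and 17.7 and 20.1 FPKM in Notum−/− molars at E14.5, and 31.3 and 31.2 FPKM against 23.6 and 22.2 FPKM at E16.5, from 266 to 504 reads. At each age both Notum−/− libraries lay below both controls. The log2 fold change with genotype was −0.30 (SE 0.08, limma adjusted p = 0.355) at E14.5 and −0.45 (SE 0.05, limma adjusted p = 0.00693) at E16.5, and the difference between the ages was −0.14 (SE 0.10, limma adjusted p = 0.335). With the trend on GC content removed, the value at E16.5 was −0.22 and still passed (limma adjusted p = 0.0452). It rose with age in Notum+/+ by 0.42 in log2 units (SE 0.05, limma adjusted p = 0.00458), while the value in Notum−/− was 0.28 (SE 0.08, limma adjusted p = 0.0953).

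Hist3h2a lies next to it on chromosome 11 and encodes an H2a. It had 1.33 and 1.31 FPKM in Notum+/+ and 1.68 and 1.26 FPKM in Notum−/− molars at E14.5, and 2.43 and 3.54 FPKM against 1.71 and 1.79 FPKM at E16.5. The 2 Notum+/+ libraries at E16.5 were the highest. It rose with age in Notum+/+ by 1.09 in log2 units (SE 0.20, limma adjusted p = 0.0154), and its genotype difference at E16.5 of −0.71 (SE 0.20) missed the threshold (limma adjusted p = 0.0539), although it passed with a filter at 1 FPKM, with voom, with 1 fit of all libraries and without replicate 1 of Notum+/+. Its exons overlap those of Trim17 and of Gm44313.

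Hist1h2bc rose with age in both genotypes and had no called difference between genotypes. It had 6.78 and 9.71 FPKM in Notum+/+ and 10.04 and 8.26 FPKM in Notum−/− molars at E14.5, and 15.5 and 14.1 FPKM against 15.5 and 15.5 FPKM at E16.5, from 189 to 552 reads. All 4 libraries at E16.5 lay above all 4 at E14.5, while the genotypes overlapped at each age. The rise was 0.86 on the log2 scale in Notum+/+ (SE 0.18, limma adjusted p = 0.0215) and 0.76 in Notum−/− (SE 0.10, limma adjusted p = 0.0183), and the genotype difference at E16.5 was 0.07 (SE 0.06, limma adjusted p = 0.443).

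Hist2h2be stayed within a narrow range. Its values were 5.46 and 6.39 FPKM in Notum+/+ and 6.15 and 5.83 FPKM in Notum−/− molars at E14.5, and 5.46 and 5.65 FPKM against 5.89 and 5.74 FPKM at E16.5, from 333 to 475 reads. The log2 fold change with genotype was 0.02 (SE 0.10) at E14.5 and 0.07 (SE 0.06) at E16.5, and that with age was −0.09 (SE 0.10) in Notum+/+ and −0.04 (SE 0.07) in Notum−/−, and none of the 4 passed limma (adjusted p = 0.436 to 0.972). At E16.5 both Notum−/− libraries lay above both controls, and the groups of the other 3 comparisons overlapped. Hist1h2bj, from 1.32 to 2.81 FPKM, overlapped in all 4.

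**Figure D4:**
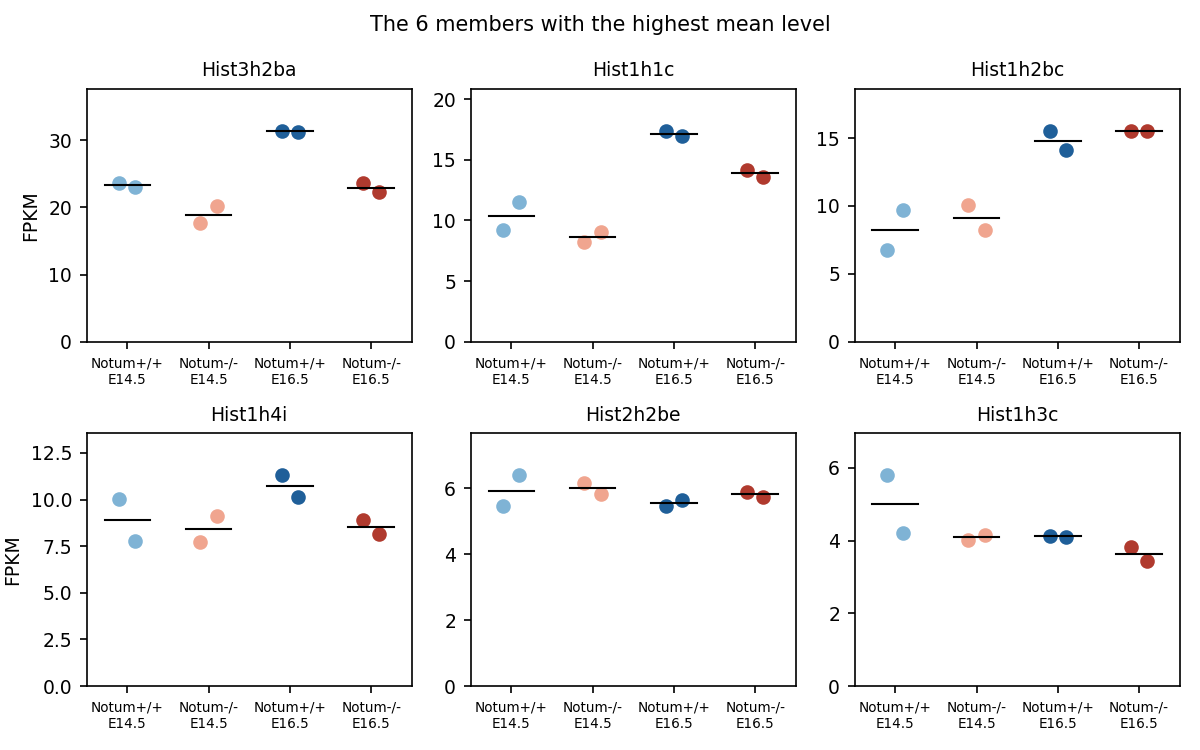
FPKM (y axis from 0, a scale of its own in each panel) of the 6 histone genes with the highest mean level in the 4 groups (x axis). Points are libraries and lines are means of 2. Hist3h2ba and Hist1h1c were lower in Notum−/− at E16.5, Hist1h2bc was higher at E16.5 in both genotypes, and Hist2h2be lay between 5.46 and 6.39 FPKM throughout.

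The H2a gene with the highest level, Hist1h2ao, ran the other way from the called genes. It had 2.42 and 5.61 FPKM in Notum+/+ and 2.64 and 3.29 FPKM in Notum−/− molars at E14.5, and 2.71 and 3.57 FPKM against 4.47 and 4.52 FPKM at E16.5. The log2 fold change of 0.52 at E16.5 (SE 0.14) did not pass (limma adjusted p = 0.0546), although it did with TPM and in 3 other settings. Of its windows, 92.7% also occur in other transcripts. Hist1h2ae had 1.48 to 2.86 FPKM and passed in none of the 5 comparisons. Hist1h2af had 86 reads in replicate 1 of Notum−/− at E14.5 and 0 to 25 reads in the other 7 libraries, so that its mean of 1.58 FPKM rests on that library, and its exons overlap those of Gm44297 on the opposite strand.

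Of the 8 genes that passed at E16.5, 4 rested on at most 23 reads in any library. Hist1h2ag had 2 and 3 reads in Notum+/+ and 6 and 8 reads in Notum−/− molars at E14.5, and 23 and 16 reads against 6 and 4 reads at E16.5. Both Notum+/+ libraries at E16.5 lay above the other 6 libraries. Per length this is 1.56 ± 0.437 against 0.387 ± 0.0205 FPKM at E16.5 (SD, n = 2 each), a log2 fold change of −1.75 (SE 0.25, limma adjusted p = 0.0121). From the reads alone the ratio of Notum−/− to Notum+/+ was 0.250, with a 95% interval for counting error of 0.111 to 0.510.

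Hist1h2ai had 13 and 17 reads in Notum+/+ and 4 and 2 reads in Notum−/− molars at E16.5, against 1 to 6 reads in the 4 libraries at E14.5. Its log2 fold change with genotype at E16.5 was −2.06 (SE 0.26, limma adjusted p = 0.00890), and it passed the filter through the Notum+/+ libraries alone. Hist1h2bk had 16 and 19 reads against 7 and 3 reads at E16.5, and 7 to 16 reads at E14.5, with a log2 fold change of −1.69 at E16.5 (SE 0.27, limma adjusted p = 0.0153). Hist1h4h had 12 and 13 reads against 4 and 4 reads at E16.5, and 1 to 6 reads at E14.5, with a log2 fold change of −1.40 at E16.5 (SE 0.25, limma adjusted p = 0.0183). Of the windows of Hist1h2ag, Hist1h2ai and Hist1h2bk, 76.2%, 88.4% and 70.8% also occur in other transcripts, and of those of Hist1h4h 38.5%.

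**Figure D5:**
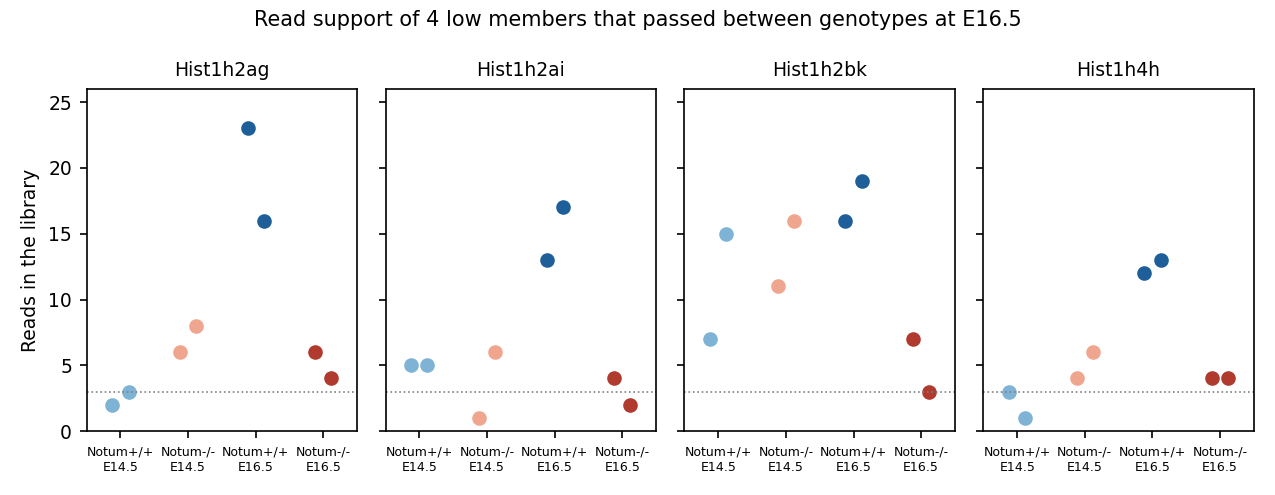
Reads per library (y axis) of the 4 genes that passed between genotypes at E16.5 with the fewest reads, in the 4 groups (x axis). Points are libraries and the dotted line is the floor of 3 reads. In each panel both Notum+/+ libraries at E16.5 lie above both Notum−/− libraries of that age, from 12 to 23 reads against 2 to 7.

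H3 and H4 genes encode the pair of core histones that forms the central tetramer of the nucleosome. Hist1h4i, the highest H4 gene, had 10.05 and 7.80 FPKM in Notum+/+ and 7.70 and 9.11 FPKM in Notum−/− molars at E14.5, and 11.3 and 10.15 FPKM against 8.89 and 8.14 FPKM at E16.5, from 131 to 208 reads. The genotypes overlapped at E14.5 and not at E16.5. The log2 fold change was −0.08 (SE 0.15, limma adjusted p = 0.905) at E14.5 and −0.33 (SE 0.08, limma adjusted p = 0.0391) at E16.5, and the difference of −0.25 between them did not pass (SE 0.20, limma adjusted p = 0.408). The call at E16.5 was kept in 5 of 12 other settings and in 0 of 4 fits without 1 library, and with the trend on GC content removed the value was −0.21 (limma adjusted p = 0.135).

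Hist1h4k had 1.60 and 0.645 FPKM in Notum+/+ and 0.917 and 1.48 FPKM in Notum−/− molars at E14.5, and 3.67 and 3.17 FPKM against 1.67 and 2.32 FPKM at E16.5, from 5 to 29 reads. The Notum+/+ libraries at E16.5 were again the highest. It fell with genotype at E16.5 by 0.76 in log2 units (SE 0.18, limma adjusted p = 0.0387) and rose with age in Notum+/+ by 1.64 (SE 0.41, limma adjusted p = 0.0332). The call between genotypes was kept in 5 of 12 other settings and in 0 of 4 fits without 1 library, and with the trend on GC content removed the value was −0.39 (limma adjusted p = 0.164). Of its windows, 64.3% also occur in other transcripts. Hist1h4d had 0.694 and 0.635 FPKM against 0.171 and 0.318 FPKM at E16.5 (limma adjusted p = 0.0619), and Hist1h4n, from 0.386 to 1.03 FPKM, overlapped between all groups compared.

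The H3 genes passed in none of the 5 comparisons, with 7 of 12 tested for genotype at E14.5 and 8 of 12 in the others. Hist1h3c, the highest of them, had 5.80 and 4.21 FPKM in Notum+/+ and 4.02 and 4.15 FPKM in Notum−/− molars at E14.5, and 4.14 and 4.10 FPKM against 3.81 and 3.44 FPKM at E16.5, from 48 to 88 reads. At E16.5 its log2 fold change was −0.18 (SE 0.08, limma adjusted p = 0.163). Hist1h3h ran from 0.597 to 3.17 FPKM, Hist1h3i from 0.749 to 1.62 FPKM and Hist1h3a from 0.360 to 1.73 FPKM, and the genotypes overlapped for all 3 at E16.5. Of the windows of Hist1h3h, 92.0% also occur in other transcripts. By estimate all 8 tested H3 genes were lower in Notum−/− at E16.5, with a median log2 fold change of −0.26, against 5 of 7 at E14.5.

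Whether the effect of genotype changed with age was fitted over all 8 libraries. Of 39 genes tested, 3 passed (Hist1h2ag, Hist1h2bk and Hist1h4h), each with a more negative effect at E16.5, against 19.7% of the 18450 genes tested (10.3% in that direction and 9.38% in the other). The differences in log2 fold change were −2.86 for Hist1h2ag (SE 0.39, adjusted p = 0.00813), −1.98 for Hist1h2bk (SE 0.51, adjusted p = 0.0400) and −2.39 for Hist1h4h (SE 0.54, adjusted p = 0.0284), all from limma. For the other 5 genes that fell at E16.5, a difference from E14.5 was not shown.

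Age was compared within each genotype, and these comparisons share libraries with those of genotype. In Notum+/+ molars, 40 genes were tested and 9 passed, 8 higher at E16.5 and 1 lower, against 40.1% of the 18415 genes tested (21.3% higher and 18.8% lower). The 8 that rose are Hist1h1c, Hist1h2ag, Hist1h2ai, Hist3h2a, Hist3h2ba, Hist1h2bc, Hist1h4h and Hist1h4k, and their share of 20.0% was near that of all genes. Tissue markers rose with age as well: the dental epithelial sum was 486.8 ± 15.0 and 2017 ± 7.11 FPKM in Notum+/+ at E14.5 and E16.5 (SD, n = 2 each), with 10 of 10 higher, and the oral epithelial sum 28.7 ± 0.693 and 1482 ± 60.3 FPKM, with 5 of 5 tested higher. Of the sensory neuron, muscle and mast cell markers, 9 of 10, 10 of 10 and 5 of 6 were called higher in Notum+/+ at E16.5. By estimate 6 of 6 mast cell markers were higher. The part of these tissues in the histone values was not tested. Hist1h2ag and Hist1h4h, which were at or under the floor in both Notum+/+ libraries at E14.5 and passed the filter through E16.5 alone, had read ratios of 7.40 (95% interval 2.91 to 24.05, counting error only) and 5.93 (2.05 to 23.4). In Notum−/− molars, 37 genes were tested and 2 rose (Hist1h1c and Hist1h2bc), against 11.9% of the 18455 genes tested (7.43% higher and 4.51% lower). By estimate, 28 of 40 genes were higher at E16.5 in Notum+/+ (median log2 fold change 0.22) and 23 of 37 in Notum−/− (median 0.09). With the trend on GC content removed, 22 of 40 were higher in Notum+/+ (median 0.10) and 23 of 37 in Notum−/− (median 0.10). Without replicate 1 of Notum+/+ at E14.5, 22 were higher and 19 lower in Notum+/+ (median 0.09). The ages did not overlap for 16 of 40 genes in Notum+/+, 12 higher and 4 lower at E16.5, against 73.9% of all genes (36.7% higher and 37.2% lower), and for 14 of 37 in Notum−/−, 9 higher and 5 lower, against 60.7% (29.9% higher and 30.8% lower). Without 1 of the E16.5 libraries of a genotype, calls with age were lost among all genes as well as among histone genes. Without 1 library the rises in Notum−/− were 0.61 to 0.75 for Hist1h1c and 0.62 to 0.90 for Hist1h2bc in log2 units.

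Other genes of histone supply and of the cell cycle are given by list. Of all genes tested, 30.9% passed between genotypes at E16.5 (14.46% higher and 16.48% lower). With age, 40.1% passed in Notum+/+ (21.3% higher and 18.8% lower) and 11.9% in Notum−/−. The counts of each list are to be read beside these shares. Of 20 S phase genes, among them Pcna (76.8 FPKM over the 8 libraries) and Mcm6 (48.3 FPKM), 13 fell and 1 rose with age in Notum+/+ molars, and 1 fell in Notum−/−. In the comparison of genotypes at E16.5, 5 of the 20 rose in Notum−/− and none fell, with a median log2 fold change of 0.10, and at E14.5 none passed, with 18 of the 20 lower by estimate (median −0.10). The summed S phase level was 453.8 and 469.9 FPKM in Notum+/+ and 491.8 and 478.1 FPKM in Notum−/− molars at E16.5, and 511.0 to 555.1 FPKM at E14.5. The libraries with the highest summed histone level were thus those with the lowest summed S phase level. The 10 G2 and M phase genes had 3 higher and 3 lower in Notum−/− at E16.5, and 5 lower with age in Notum+/+. Of 4 cell cycle inhibitors, Cdkn1c rose by 0.43 and Cdkn2c fell by 0.37 on the log2 scale in Notum−/− at E16.5 (adjusted p = 0.00708 and 0.0164 from limma).

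For the processing and decay of histone mRNA, 17 of 19 listed genes were tested. In Notum−/− at E16.5, 5 rose and 2 fell, where 14.46% of all genes tested were called higher and 16.48% lower. Npat, the coactivator of histone gene transcription, had 8.39 and 8.28 FPKM in Notum+/+ and 12.3 and 11.8 FPKM in Notum−/−, a log2 fold change of 0.53 (SE 0.05, limma adjusted p = 0.00587). With age in Notum+/+, 11 of the 17 fell and 1 rose, Npat by −0.50 and Slbp by −0.31 among those that fell (adjusted p = 0.00431 and 0.0436 from limma), and in Notum−/− none passed. The summed level of this list was 276.5 to 314.4 FPKM in the 8 libraries. Of 17 histone chaperones, which carry histones to DNA, 5 rose and 1 fell in Notum−/− at E16.5, with Chaf1a the gene that fell (−0.33, SE 0.06, limma adjusted p = 0.0228).

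The replication-independent variants, most of whose mRNAs are tailed as usual, had a higher summed level than the clustered genes. The 11 genes summed to 870.1 to 1132 FPKM per library, against 86.1 to 124.8 FPKM for the clustered 67, and H3f3b alone had a mean of 241.0 FPKM. In Notum−/− at E16.5, 6 of the 11 fell and none rose, where 16.48% of all genes tested were called lower. The median log2 fold change was −0.22, and all 11 were lower by estimate. H3f3a changed most, with −0.76 in log2 units (SE 0.05, limma adjusted p = 0.00439), and H2afx, which shares the stem-loop of the clustered genes, fell by 0.22 (SE 0.06, limma adjusted p = 0.0411). At E14.5, 9 of the 11 were lower by estimate and 0 passed. With age in Notum+/+, 3 rose and 1 fell.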

How the data were processed

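The deposited table gives FPKM, which the authors calculated from read counts and gene lengths after mapping paired-end reads to mm10 with HISAT2 2.0.5 and counting them per gene with featureCounts 1.5.0-p3 (submitters' processing notes). The strand setting is not given in the sources used here. Whole reads per library were rebuilt as FPKM times length (100% of values above 0 within 0.05 of a whole number). The floor, the most that a count of 0 allows, is 3 reads per library. Intervals are exact (Clopper-Pearson) and cover counting error only, since reads without molecular identifiers are not independent molecules.

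The test was limma 3.58.1 in R 4.3.3 (lmFit, eBayes with a trend of variance) on log2(FPKM + 0.1), on all genes with a mean above 0.3 FPKM in the libraries of the fit, with Benjamini-Hochberg adjustment over them. On this scale the change of low genes is understated. Each pair of groups was fitted alone and the interaction on all 8 libraries. No exact permutation test was used, since 2 libraries against 2 cannot go below p = 0.333. The labels call the 2 libraries of a group biological replicates. The script was run on simulated data with 200 changed genes, all changed more than Hist1h1c, Hist1h4i and Hist3h2ba were at E16.5. Smaller changes were not simulated, and no result above rests on that run. Figures used matplotlib and Python.

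Named genes are the 4 highest of each class, the genes past the adjusted p (up to 5 each way), Notum, testis-type genes and, of other lists, the highest or those past the test. The genes and lists were chosen with earlier results of these data known. The lists are histone variants, histone mRNA processing and decay, histone chaperones, S phase, G2 and M phase, cell cycle inhibitors, untailed RNAs, mitochondrial rRNA and 7 lists of cell type markers. Mitochondrial rRNA, a pair of genes, had 1 higher in Notum−/− at E16.5, 0 called at E14.5 and 1 lower with age in Notum+/+. Alternatives are given in the closing section.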

Additional observations from a re-analysis of the deposited data

Results flagged for a closer look

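The genotype effect differed between the ages, by the interaction term of limma over all 8 libraries, for Hist1h2ag (−2.86 on the log2 scale), Hist1h4h (−2.39) and Hist1h2bk (−1.98). Each had its highest level in Notum+/+ molars at E16.5, with 12 to 23 reads per library in that group. Between 5 of 10 (Hist1h2bk) and 10 of 10 (Hist1h2ag) of the other settings kept the adjusted p under 0.05, and of the 8 fits without 1 library Hist1h2ag passed in 8, Hist1h4h in 2 and Hist1h2bk in 1.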

How the results depend on the processing

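For the 5 counts of called histone genes and the 4 ratios of sums, 97 alternative values stayed within 1.5 times the count or within 1 SD of the ratio and 31 did not. For the genes that passed, the direction was kept in every alternative run, with 247 alternative values still past the threshold and 103 no longer past it. At E16.5 the 8 genes called between genotypes became 5 without a trend of variance and 4 without genes that overlap others or share 50% of their windows (an alternative chosen after seeing the data), and leaving out 1 library gave 0 to 4. With TPM the calls were 1 higher and 6 lower, and with the trend on GC content removed 1 higher and 5 lower, where Hist1h2ao is the higher gene. TPM moved the median of all genes for the difference between ages from −0.01 to 0.11. The 3 genes whose effect differed between ages became 1 with no filter, with voom or without overlapping and sharing genes. With a filter at 1 FPKM none could be called, since their means lie under it and they were not tested. Without 1 library the differences were −3.14 to −2.59 for Hist1h2ag, −2.875 to −1.90 for Hist1h4h and −2.45 to −1.51 for Hist1h2bk. The 9 called with age in Notum+/+ became 5 without overlapping and sharing genes. They also became 5 with a filter at 1 FPKM, where Hist1h2ag, Hist1h2ai, Hist1h4h and Hist1h1a lay under the filter and were not tested. Leaving out 1 E16.5 library lost calls among all genes as well as among histone genes. The 2 called in Notum−/− became 1 without a trend of variance, 4 with the GC trend removed and 4 with 1 fit of all libraries. There too, leaving out 1 E16.5 library lost calls among all genes as well as among histone genes. At E14.5 the count was 0 throughout. Of all genes, the main fit called 38 there, no filter 1, the replicate block 2, voom 374 and 1 fit of all libraries 304. With 1 or 2 calls among all genes a histone count of 0 says little, and the same holds for fits without 1 library. These runs are among the 97 values that stayed. A lone library left in a group was assumed to vary like the others. Where the groups of a called gene did not overlap, leaving out a library or changing the pseudocount or filter could not reverse its direction. The causes were not tested.

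The ratio of sums at E16.5, 0.813, became 0.861 with TPM, 0.841 with reads as a share of all reads and 0.840 without Hist3h2ba, and 0.803 to 0.823 without 1 library. The ratio of ages in Notum−/−, 1.16, became 1.23 with reads as a share of all reads, 1.22 without overlapping genes and 1.225 without sharing genes, and 1.15 to 1.18 without 1 library. That at E14.5 was 0.875 to 0.981 and that of ages in Notum+/+ 1.25 to 1.40 without 1 library.

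Deviations of same-numbered libraries correlated at −0.0847 to 0.0640 over genes. The labels do not name the litters of a library, so shared litters or a pairing under other numbers could not be examined. With the replicate number as a block, 0 histone genes passed at E14.5, 7 at E16.5, 1 for the difference between ages, 8 with age in Notum+/+ and 3 in Notum−/−. At E14.5 that fit called 2 of all genes. The median histone gene held 55 reads over all 8 libraries, which limits the precision of single genes.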
